A study of Mus musculus with 12 samples.

Results

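The unfolded protein response genes described here were Hspa5, Hsp90b1, Calr, Pdia4, Sdf2l1, Dnajb9, Herpud1, Xbp1, Ddit3 and Trib3, measured in whole mouse kidney. A member was represented by a probe set annotated to its symbol alone, and by the one with the highest mean over all arrays where several existed. All 10 members had such a probe set, among 19936 genes that did, and all 10 passed the filter on low values that left 16480 genes to be tested. Only Pdia4 had more than 1 probe set. Every value below is a log2 probe-set value, on which a difference of 1 is a doubling, and levels of different genes are not compared.

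The study crossed a D6 deletion with diabetes and measured 1 array per mouse at 6 months of age, 3 mice in each of 4 groups. The groups without diabetes were FVB, with D6 wild type (D6+/+), and D6, which lacked the receptor (D6-/-). The diabetic groups were OVE, with D6+/+, and OVE-D6, with D6-/-. D6, the product of Ackr2, is an atypical chemokine receptor that removes inflammatory chemokines, and the OVE transgene causes diabetes by expressing calmodulin in pancreatic beta cells under an insulin promoter. All groups were on the FVB strain, ate standard chow and had no other treatment named, and the D6 deletion had been bred from C57BL/6 into FVB for at least 10 generations. The samples were frozen whole kidneys, so a change in the share of a cell type and a change in RNA per cell cannot be told apart.

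The unfolded protein response is the programme that cells switch on when unfolded proteins accumulate in the endoplasmic reticulum (ER). It is run by the ER membrane sensors IRE1, PERK and ATF6. IRE1 splices the Xbp1 transcript into one that encodes an active transcription factor, PERK slows translation and favours synthesis of ATF4, and ATF6 is cut to release a transcription factor that raises ER chaperone genes. The tubule epithelium of the kidney handles large amounts of filtered and membrane protein, and ER stress has been widely studied in diabetic nephropathy. A whole-gene probe set does not separate spliced from unspliced Xbp1, so these data do not read IRE1 activity directly.

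Promoters of several unfolded protein response genes are known to carry short elements bound by its transcription factors. Of the 10 members 5 held a match to an element searched here, and the stretches of 4 are shown. The ER stress response element was searched as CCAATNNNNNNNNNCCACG, its second form as ATTGG and CCACG parted by 1 base, the core of the XBP1 and ATF6 element as TGACGTG and an ATF4 and C/EBP element as TGATGNAA, each on both strands. The windows ran from 250 bases before to 50 bases after the start in RefSeq (GRCm38.p6), and all 10 members had one. The first element matched 3 members, Hspa5, Hsp90b1 and Calr, against 0.119% of 32851 promoter windows. Its second form matched Herpud1 alone among the members (0.0365% of windows), the core TGACGTG matched Hspa5 alone (2.01%), and the ATF4 and C/EBP element matched Herpud1 and Trib3 (3.97%). These elements were known from promoters of such genes beforehand, so the matches are no test of enrichment. The shares count windows, 32851 for 27025 genes, and not genes. A match is a description of letters, not evidence that a factor binds. In the stretches below, read 5′ to 3′ on the gene's strand, capitals mark the fixed letters of each match.
Hspa5, chr2:34771920-34772059, plus strand, 170 to 31 bases before the start: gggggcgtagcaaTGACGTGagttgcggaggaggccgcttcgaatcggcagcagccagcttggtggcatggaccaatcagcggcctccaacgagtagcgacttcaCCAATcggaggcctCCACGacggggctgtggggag
Hsp90b1, chr10:86705530-86705669, minus strand, 225 to 86 bases before the start: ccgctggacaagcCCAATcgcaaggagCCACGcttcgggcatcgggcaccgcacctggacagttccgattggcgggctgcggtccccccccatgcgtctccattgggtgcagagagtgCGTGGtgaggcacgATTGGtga
Calr, chr8:84847052-84847111, minus strand, 180 to 121 bases before the start: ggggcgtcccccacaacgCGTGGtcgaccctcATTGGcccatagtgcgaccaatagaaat
Herpud1, chr8:94386304-94386398, plus strand, 125 to 31 bases before the start: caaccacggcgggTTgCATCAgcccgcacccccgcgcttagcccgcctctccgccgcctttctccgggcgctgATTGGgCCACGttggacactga
Hsp90b1 held the first element in both orientations, and in Calr it lay on the opposite strand, as CGTGG followed by ATTGG.

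Some arrays stood apart before any member was considered. The first principal component of the tested genes, with 35.9% of the variance, set OVE replicates 1 and 2 apart at scores of 27.0 and 29.4, with OVE replicate 3 at 6.9 and a range of -15.1 to 5.2 for the remaining 9. OVE-D6 replicate 3 carried adrenal cortex transcripts, with Cyp11b1, the enzyme that makes corticosterone, at 9.93 against 5.27 to 5.76 on the other 11 arrays. Ackr2 itself lay between 6.74 and 7.04 on all 12 arrays, and whether its probe set covers the deleted part was not used here. All 7 proximal tubule markers were above the filter in these kidneys. For the member differences described below, values without OVE replicate 3 or OVE-D6 replicate 3 are added for some members. Leaving out OVE replicate 1 moved Hspa5 and Hsp90b1 about as far the other way in OVE against FVB. Ranges over single arrays left out are given at the end for differences whose sign changed.

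None of the 10 members passed the limma test in any of the 4 comparisons of a pair of groups, or in the test of whether the diabetes effect differed between genotypes. Among all tested genes, 7.28% were called for diabetes with D6 present (OVE against FVB) and 0.285% for diabetes without it (OVE-D6 against D6). For the loss of D6 the share called was 0.231% in diabetic mice (OVE-D6 against OVE) and 0.0121% in non-diabetic mice (D6 against FVB), and for the interaction it was 0.0%. At an unadjusted p under 0.05 there were 1 and 4 members for diabetes with and without D6, where the shares over all tested genes were 24.1% and 9.98%. There were 2 and 0 members for the loss of D6 with and without diabetes (14.8% and 3.82% of tested genes), and 2 for the interaction (9.99%). No member had groups free of overlap in D6 against FVB, where 9.79% of tested genes did. Such groups were found for 1 member in OVE against FVB (higher, beside 27.1% of tested genes in either direction). In OVE-D6 against OVE there were 2, both lower (17.6%), and in OVE-D6 against D6 1 higher and 1 lower (16.4%). Several members instead varied between arrays of the same group, most of all Sdf2l1, Hspa5 and Ddit3. Xbp1 was lower in the OVE-D6 group and Dnajb9 higher in both diabetic groups, without a call in these comparisons and with gaps that were common among tested genes.

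**Figure D1:**
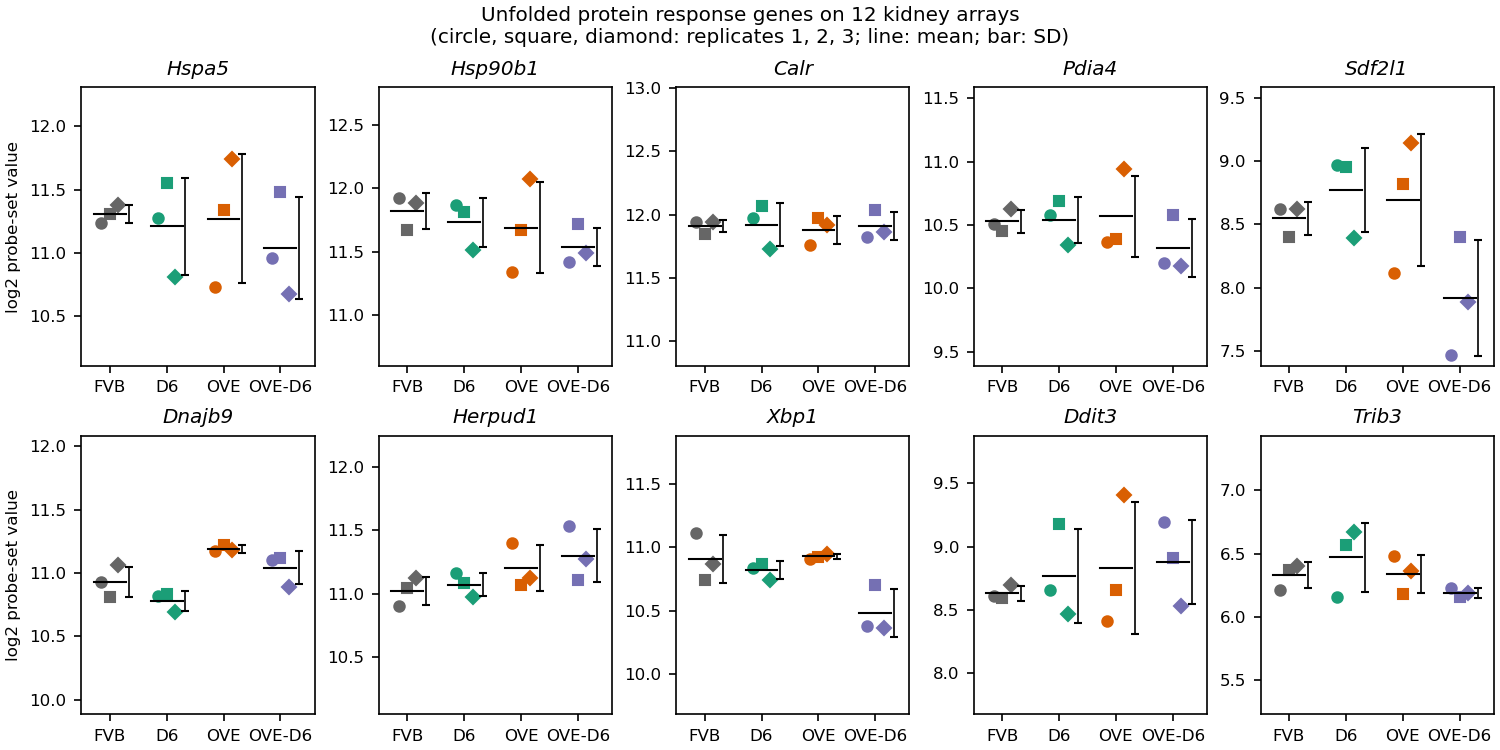
Log2 probe-set values of the 10 genes (vertical axes, all spanning the same width) on the 12 arrays, by group (horizontal axes), with circles, squares and diamonds for replicates 1, 2 and 3, a line for the group mean and a bar for the SD. Hspa5 and Ddit3 vary more within the D6, OVE and OVE-D6 groups than their group means differ, while the 3 OVE-D6 values of Xbp1 lie under all 9 others.

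Hspa5 encodes BiP, the main ER chaperone of the Hsp70 family and the usual marker of the response. It was 11.24, 11.31 and 11.38 on the FVB arrays, 11.28, 11.55 and 10.81 on the D6 arrays, 10.73, 11.34 and 11.74 on the OVE arrays and 10.96, 11.48 and 10.68 on the OVE-D6 arrays. The FVB mice lay close together (SD 0.07, n = 3), whereas the SD was 0.38 in D6, 0.51 in OVE and 0.40 in OVE-D6, and the ranges of all 4 groups overlapped. The OVE group held the highest array, replicate 3, and one of the lowest, replicate 1. The difference was -0.04 ± 0.25 (SE, n = 3 per group) for OVE against FVB, with a 95% interval of -0.59 to 0.51, which spans 0.66-fold to 1.43-fold (limma, adjusted p = 0.942). Without OVE replicate 3 it was -0.28 (adjusted p = 0.517), and without OVE replicate 1 it was 0.23 (adjusted p = 0.631). In OVE-D6 against OVE, Hspa5 differed by -0.23 ± 0.25 (adjusted p = 0.715), by 0.0040 without OVE replicate 3 and by -0.055 without OVE-D6 replicate 3. Over all single arrays left out this difference ran from -0.51 to 0.004. In order of group means, FVB (11.31), OVE (11.27), D6 (11.21) and OVE-D6 (11.04) did not differ beyond their spread.

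Hsp90b1 encodes GRP94, the ER member of the Hsp90 family. Its values were 11.92, 11.67 and 11.88 in FVB, 11.87, 11.81 and 11.51 in D6, 11.34, 11.67 and 12.07 in OVE and 11.42, 11.72 and 11.49 in OVE-D6. OVE again held both the highest and the lowest of the 12 values, on replicates 3 and 1. The 2 diabetic means were 11.69 and 11.54, against 11.82 and 11.73 without diabetes, and the difference for OVE against FVB was -0.13 ± 0.16 (adjusted p = 0.668), or -0.32 without OVE replicate 3 (adjusted p = 0.169). Without OVE replicate 1 this difference was 0.047 (limma adjusted p = 0.894). Calr, which encodes the lectin chaperone calreticulin, had the smallest range over the 12 arrays of any member. It lay between 11.73 and 12.07 on all arrays, and its group means ran only from 11.88 to 11.92. For Calr the 95% interval of OVE against FVB was 0.85-fold to 1.14-fold, so a diabetes effect of 1.5-fold lay outside it.

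Pdia4 encodes a protein disulfide isomerase of the ER lumen. Its values were 10.51, 10.45 and 10.63 in FVB, 10.58, 10.69 and 10.34 in D6, 10.37, 10.39 and 10.94 in OVE and 10.20, 10.58 and 10.18 in OVE-D6. OVE replicate 3 was the highest of the 12 and OVE-D6 replicates 1 and 3 the lowest, and all groups overlapped. Pdia4 differed by -0.24 ± 0.16 in OVE-D6 against OVE (adjusted p = 0.493) and by -0.06 without OVE replicate 3, in a range of -0.38 to -0.06 over single arrays left out. Its other probe set had a mean of 5.81, under 5.93, a level not exceeded by 95% of 1015 genes for olfactory receptors, whose expression in kidney is low. With both probe sets averaged, OVE against FVB went from 0.04 to -0.081, and without OVE replicate 3 it was -0.15. Over all single arrays left out the OVE against FVB difference ran from -0.15 to 0.14.

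Sdf2l1, a partner of BiP that is strongly induced by ER stress, had the widest range of the members. It was 8.62, 8.40 and 8.62 in FVB, 8.97, 8.95 and 8.39 in D6, 8.12, 8.82 and 9.14 in OVE and 7.47, 8.40 and 7.89 in OVE-D6. From the lowest OVE-D6 array to the highest OVE array the span was 1.67, or 3.18-fold. The OVE-D6 mean of 7.92 was the lowest, with FVB at 8.55, OVE at 8.69 and D6 at 8.77, but OVE-D6 replicate 2, at 8.40, overlapped the OVE and D6 ranges. In OVE-D6 against D6 the difference was -0.85 ± 0.26, with an interval of 0.37-fold to 0.82-fold and an adjusted p of 0.257 by limma. In OVE-D6 against OVE it was -0.77 ± 0.26 (adjusted p = 0.210), or -0.55 without OVE replicate 3 and -0.76 without OVE-D6 replicate 3. Single arrays left out gave a range of -1.06 to -0.55 there. The interaction for Sdf2l1 was -1.0 ± 0.37 (adjusted p = 0.404). These differences therefore did not pass over all genes, although their intervals for a single gene lay on 1 side of 0.

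Dnajb9 encodes ERdj4, a J-domain co-chaperone of BiP that is a target of spliced Xbp1. Its values were 10.93, 10.81 and 11.06 in FVB and 11.17, 11.22 and 11.18 in OVE, and 10.82, 10.83 and 10.69 in D6 and 11.10, 11.12 and 10.89 in OVE-D6. The diabetic arrays lay above the non-diabetic arrays of the same genotype in both cases. Groups that do not overlap were found in 27.1% of all tested genes for OVE against FVB and in 16.4% for OVE-D6 against D6, so this by itself was common. In the higher direction alone the shares were 13.6% and 7.72%. The difference was 0.26 ± 0.09 in each genotype (limma adjusted p = 0.0914 and 0.303), with an interval of 1.05-fold to 1.36-fold in both. The OVE arrays also lay above the OVE-D6 arrays, by 0.15 ± 0.09, without a call (adjusted p = 0.442, where 17.6% of tested genes did not overlap and 8.24% were lower in that way), and the difference of OVE-D6 minus OVE was -0.077 without OVE-D6 replicate 3. In order, OVE (11.19) stood above OVE-D6 (11.04), while OVE-D6 and FVB (10.93), and FVB and D6 (10.78), overlapped.

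Averaging the diabetes effect over both genotypes was added after these values had been seen. In it Dnajb9 was 1.2-fold higher (0.26 ± 0.06 on the log2 scale, 6 against 6 arrays) and rose by limma with an adjusted p of 0.0264. It was the only member called, 1 of 10, where 7.65% of all tested genes were called and 4.49% rose. At an unadjusted p under 0.05 there were 2 members, beside 24.0% of tested genes. The call ended without FVB replicate 1 or 2, D6 replicate 3, OVE replicate 2 or OVE-D6 replicate 1 or 2 (adjusted p = 0.0532, 0.0618, 0.0601, 0.0563, 0.0592 and 0.0569), with the difference between 0.23 and 0.26. Herpud1 differed by 0.20 ± 0.08 in the same average (adjusted p = 0.162).

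Herpud1 encodes an ER membrane protein of ER-associated degradation, which removes misfolded proteins. It was 10.90, 11.04 and 11.12 in FVB, 11.16, 11.08 and 10.97 in D6, 11.40, 11.07 and 11.12 in OVE and 11.53, 11.11 and 11.27 in OVE-D6. The highest array in each diabetic group was replicate 1. OVE-D6 replicate 3 also lay above all non-diabetic arrays, and the other 3 diabetic arrays lay within their range. The difference was 0.18 ± 0.12 for OVE against FVB (adjusted p = 0.391) and 0.23 ± 0.12 for OVE-D6 against D6 (adjusted p = 0.562). On OVE replicate 1 and OVE-D6 replicate 1, where Herpud1 was highest, Hspa5 was at 10.73 and 10.96, the lowest OVE value and the middle OVE-D6 value of that gene.

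Xbp1 encodes the transcription factor of the IRE1 arm. It was 11.11, 10.74 and 10.87 in FVB, 10.84, 10.87 and 10.74 in D6, 10.91, 10.92 and 10.95 in OVE and 10.38, 10.70 and 10.36 in OVE-D6. The OVE-D6 arrays were the lowest 3 of the 12. FVB overlapped both D6 and OVE, while the OVE arrays lay just above the D6 arrays. The gap was small at OVE-D6 replicate 2, whose 10.70 lay just under the lowest FVB and D6 values of 10.74. Xbp1 differed by -0.45 ± 0.11 in OVE-D6 against OVE, with an interval of 0.62-fold to 0.86-fold, and did not pass over all genes (limma adjusted p = 0.112, and 0.0825 to 0.324 over the alternatives). In OVE-D6 against D6 it differed by -0.34 ± 0.11 (adjusted p = 0.277). The share of tested genes whose groups did not overlap was 17.6% in the first and 16.4% in the second comparison, or 8.24% and 8.68% in the lower direction. Without OVE-D6 replicate 3, the array with adrenal transcripts, these differences were -0.39 and -0.28 (adjusted p = 0.219 and 0.624). The interaction for Xbp1 was -0.36 ± 0.15 (adjusted p = 0.466), so a different diabetes effect in knockouts was not shown.

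Ddit3 encodes CHOP, a transcription factor of the PERK arm linked to cell death under prolonged ER stress. It was 8.61, 8.59 and 8.70 in FVB, 8.66, 9.18 and 8.47 in D6, 8.41, 8.66 and 9.41 in OVE and 9.19, 8.91 and 8.53 in OVE-D6. The FVB mice again lay close together, and the lowest and the highest of all 12 values were both in the OVE group. The group means ran from 8.63 in FVB to 8.88 in OVE-D6, a span of 0.25 that was smaller than the SD in OVE (0.52) or D6 (0.37). Ddit3 differed by 0.20 ± 0.24 in OVE against FVB (adjusted p = 0.659), with an interval of 0.80-fold to 1.66-fold, and by -0.093 without OVE replicate 3. With each single array left out this difference ran from -0.093 to 0.41. Trib3, a pseudokinase induced by ATF4 and CHOP, lay between 6.16 and 6.67 on all arrays. That is close to 5.93, the olfactory receptor level given above, so a fold change of Trib3 may be understated. Its OVE-D6 arrays (6.16 to 6.23) and its D6 arrays (6.16 to 6.67) overlapped, with a difference of -0.28 ± 0.12 (adjusted p = 0.484).

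**Figure D2:**
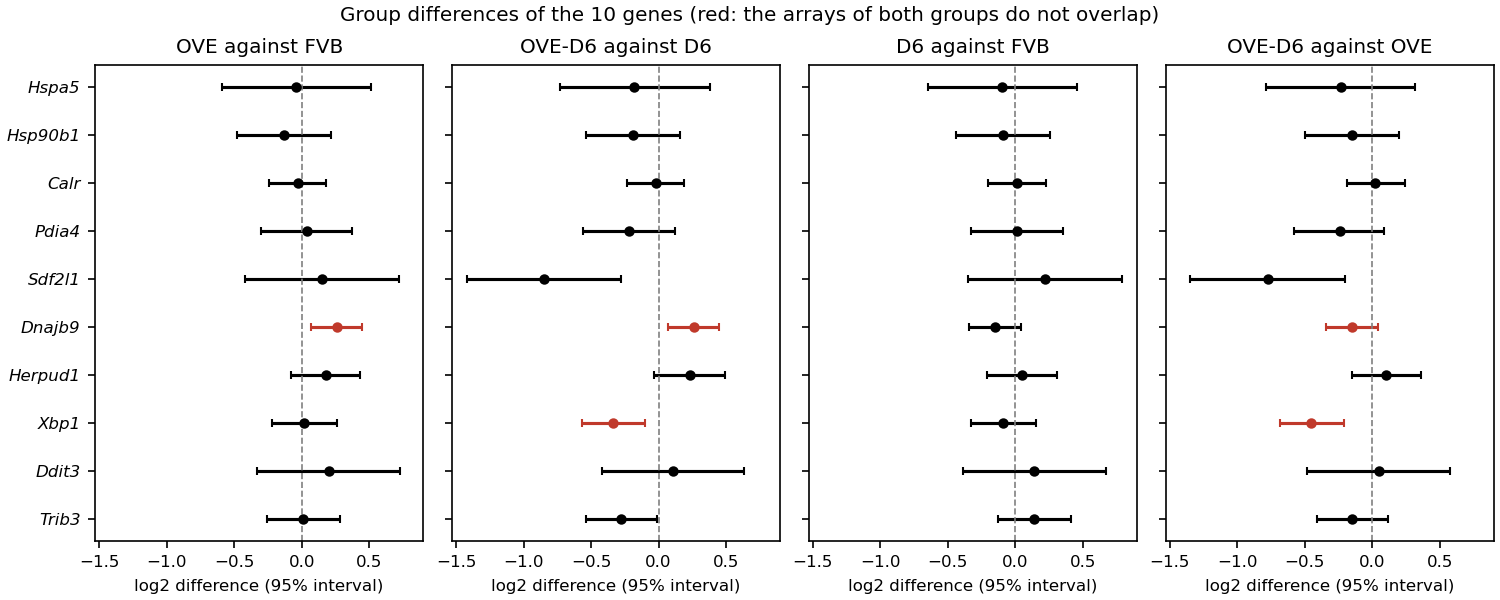
Log2 differences (horizontal axes) of the 10 genes (vertical axis) in the 4 comparisons of a pair of groups, as points with 95% intervals from the limma fit, in red where the arrays of both groups did not overlap. The intervals of Hspa5, Ddit3 and Sdf2l1 are the widest, and the red points are Dnajb9 in 3 comparisons and Xbp1 in 2, none of which passed over all genes.

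Read as a list, the members had a median difference of 0.03 in OVE against FVB, beside -0.02 over all tested genes, with 7 of 10 positive. The median was -0.15 in OVE-D6 against OVE, where 7 of 10 were negative and the median over all tested genes was 0.01. It was 0.01 in D6 against FVB and -0.18 in OVE-D6 against D6, with 7 of 10 negative in the latter. The medians over all tested genes were 0 and -0.01 there. The last comparison shares the OVE-D6 arrays with the second, so the pair is not independent. In OVE-D6 against OVE the median of the members ran from -0.244 to -0.028 when single arrays were left out.

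The spread between arrays of a group, each from a separate mouse, was measured as the pooled within-group SD. Its median was 0.192 for the members and 0.123 for all tested genes. Sdf2l1 (0.391), Hspa5 (0.378) and Ddit3 (0.360) lay above 98.3%, 98.1% and 97.8% of tested genes. Against the 729 tested genes within 0.5 log2 units of its level, Hspa5 had a larger spread than 98.9%. All 10 members lay above the median spread of genes of their own level, and 5 of them, Hspa5, Hsp90b1, Pdia4, Sdf2l1 and Ddit3, had a larger spread than at least 94.4% of such genes. Dnajb9 (0.10) was near the middle of genes of its level, at 53.6%. Against all tested genes, Dnajb9 and Calr lay under the median spread, above 30.2% and 47.1%. This spread differed between groups for Hspa5 and Ddit3, at 0.07 and 0.06 in FVB against 0.33 to 0.52 in the other groups, with 3 mice each and no test of that difference.

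**Figure D3:**
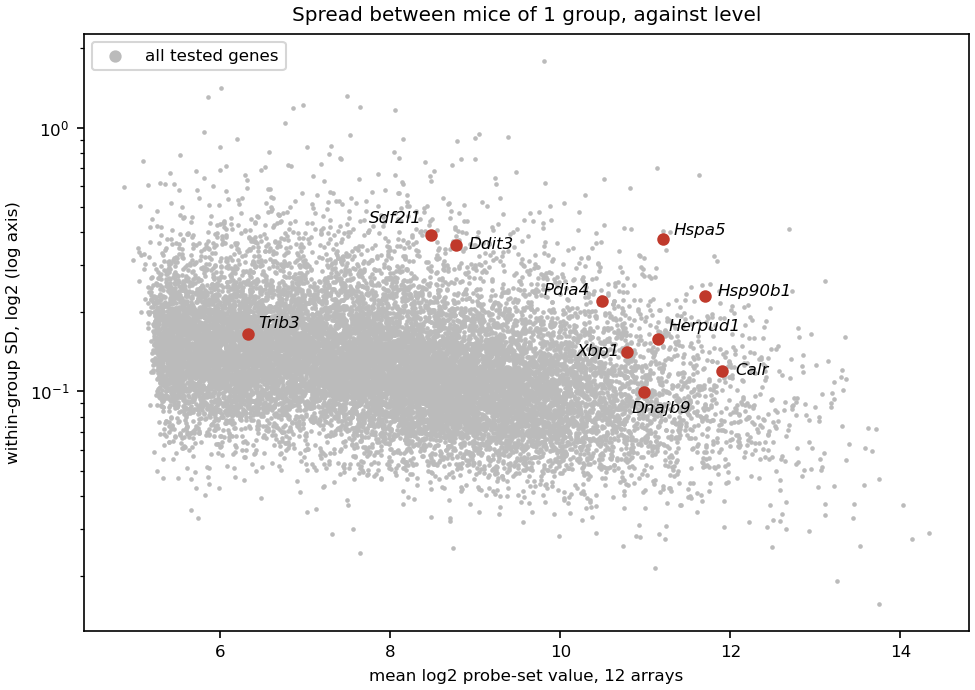
Pooled within-group SD in log2 units (vertical axis, log scale) against mean log2 value over 12 arrays (horizontal axis) for 16480 tested genes in grey and the 10 members in red. Hspa5, Hsp90b1 and Pdia4 stand in the upper part of the cloud at high levels, and Sdf2l1 and Ddit3 do so at middle levels.

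The spread followed the same arrays in several members. With 1 array per mouse, a difference between mice cannot be told apart from a difference between array preparations. D6 replicate 3 was the lowest D6 array for 9 of 10 members, all but Trib3, where it was the lowest for 33.1% of all tested genes. OVE replicate 1 was the lowest OVE array for 8 of 10 (35.7% of tested genes), and OVE replicate 3 the highest for 6 of 10 (39.4%). OVE-D6 replicate 2 was the highest of its group for 7 of 10, beside 33.9% of tested genes. In FVB, replicate 2 was the lowest for 7 of 10 (38.7%) and replicate 3 the highest for 7 of 10 (34.3%). No other member had the same lowest array as Hspa5 in all 4 groups, where 1.54% of tested genes did. Members on 1 array share its RNA and its scaling, so these counts are not independent of each other.

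Likeness to Hspa5 was measured as the root mean square difference over the 12 arrays after each gene was centred on its own mean. A gene with no variation would lie 0.326 from Hspa5. As a description with no test, the closest named genes were Tra2a (0.135), Hyou1 (0.144), Xpo1 (0.151), Banp (0.167), Manf (0.168) and Wnt5b (0.169). Hyou1, an ER chaperone of the Hsp110 family, was 9.42, 9.59 and 10.33 on the OVE arrays and 9.37, 9.91 and 9.36 on the OVE-D6 arrays, with its highest value on OVE replicate 3 as for Hspa5. Among members, Pdia4 ranked 8 (0.177) and Hsp90b1 ranked 11 (0.181) of all other tested genes. Calr ranked 272, Ddit3 471, Xbp1 1022 and Sdf2l1 2233, while Dnajb9, Trib3 and Herpud1 ranked 5631, 11912 and 14472. A wider list of 48 tested pathway genes had 8 of its genes among the 100 closest to Hspa5, out of 16480 tested. They were Hyou1, Manf, Creld2, Syvn1, Pdia6, Sel1l, Pdia3 and Hspa13. Of these 8, 5 had a promoter window and 3 of those, Creld2, Syvn1 and Pdia6, matched the first element searched above. In the whole wider list 7 of 41 genes with a window matched it, among them Canx, Dnajc3, Ero1b and Derl3, which were not among the closest 100. Whether the element goes with likeness to Hspa5 was not tested. The genes closest to Ddit3 were Lonrf1 (0.173), Tnnc1 (0.187), H2bc18 (0.197), G0s2 (0.198), Slc25a42 (0.202) and Pnpla5 (0.203), and no member was among its closest 100.

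**Figure D4:**
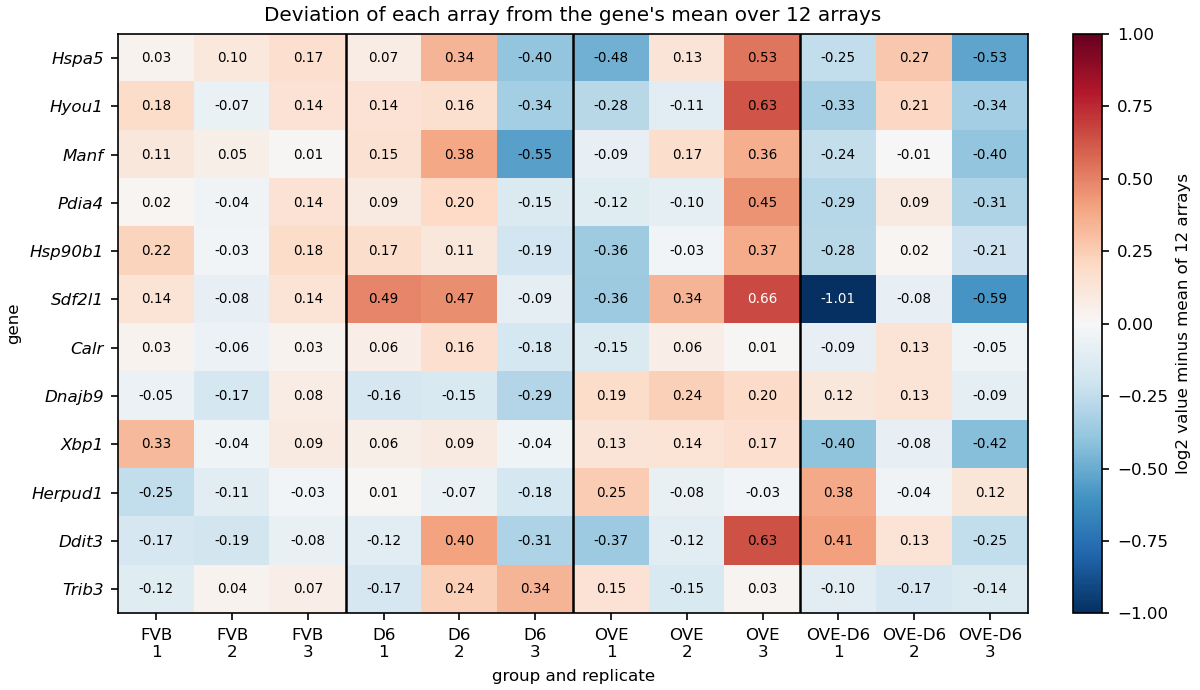
Log2 value of each array minus the gene's mean over 12 arrays (colour and printed number) for the 10 members plus Hyou1 and Manf (rows) on the 12 arrays (columns, grouped). Hspa5, Hyou1, Manf, Pdia4 and Hsp90b1 share low values on D6 replicate 3, OVE replicate 1 and OVE-D6 replicates 1 and 3 and high values on OVE replicate 3, while Herpud1 and Trib3 follow other arrays.

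Of 48 tested genes of the wider list, 2 rose and none fell in OVE against FVB (limma, adjusted p threshold 0.05), where 7.28% of all tested genes were called. Asns, the asparagine synthetase that ATF4 induces, was 8.01, 7.68 and 7.85 in FVB and 8.85, 8.68 and 8.40 in OVE. All OVE values of Asns lay above all FVB values, and it was 1.73-fold higher (0.79 ± 0.15 on the log2 scale, adjusted p = 0.0107), past the threshold in each of 21 alternatives. Sec24d, a coat protein of vesicles that leave the ER, was 1.33-fold higher (0.41 ± 0.08, adjusted p = 0.0149). Its call ended without FVB replicate 2 or OVE replicate 2 (adjusted p = 0.0570 and 0.0607) and in a fit of these 2 groups alone (adjusted p = 0.0749). A share of 2 in 48 is not above that over all tested genes.

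By role, 1 of 12 genes of the PERK and ATF4 arm rose in OVE against FVB. In this arm 11 of 12 had positive estimates, with a median of 0.17 beside -0.02 over all tested genes. At an unadjusted p under 0.05 by limma there were 4 of 12, where 24.1% of all tested genes were. Among those that did not pass, and named after their values were seen, were Cebpb (0.31 ± 0.09, adjusted p = 0.0551), the stress factor gene Atf3 (0.90 ± 0.33, adjusted p = 0.120) and Ddit4 (0.59 ± 0.24, adjusted p = 0.150). None of 5 sensors and their processing enzymes, and none of 16 further chaperones and folding enzymes, passed, with medians of 0.04 and 0.00. Of 15 genes listed under ER-associated degradation and translocation 1 rose, the vesicle coat gene Sec24d, with a list median of 0.01. None of the sensors passed in any comparison, with group means of Ern1 (IRE1) from 9.06 to 9.15, Atf6 from 9.62 to 9.78 and Eif2ak3 (PERK) from 8.86 to 9.12. Atf4 means ran from 7.26 in D6 to 7.50 in OVE-D6, and its known control is at translation, which these arrays do not measure.

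No gene of the wider list passed for the loss of D6, for diabetes without D6 or for the interaction. By limma 8 of 48 had an unadjusted p under 0.05 in OVE-D6 against OVE, 0 in D6 against FVB, 5 in OVE-D6 against D6 and 3 in the interaction. The shares over all tested genes were 14.8%, 3.82%, 9.98% and 9.99%, so none of these counts stood well above them. The smallest p in OVE-D6 against OVE belonged to Sec24d (-0.35 ± 0.08, adjusted p = 0.103), Derl3 (-0.44 ± 0.15) and Cebpg (-0.21 ± 0.07). In that comparison 37 of 48 had negative estimates, with a median of -0.12 beside 0.01 for all tested genes. In D6 against FVB, where 0.0121% of all genes were called, they were Hspa13 (-0.20 ± 0.10), Os9 (0.13 ± 0.11) and Edem2 (0.12 ± 0.11), each at an adjusted p of 1. In OVE-D6 against D6 they were Cebpb (0.30 ± 0.09), Edem1 (-0.23 ± 0.08) and Atf6b (-0.25 ± 0.10), at adjusted p from 0.240 to 0.425. For the interaction they were Sec24d (-0.36 ± 0.12), Cebpg (-0.27 ± 0.11) and Asns (-0.47 ± 0.21), at adjusted p from 0.344 to 0.493.

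Averaged over genotype, 3 genes of the wider list rose with diabetes and 1 fell, of 48, where 7.65% of all tested genes were called and 4.49% rose. They were Asns (0.56 ± 0.11, adjusted p = 0.0101), the transcription factor gene Cebpb (0.31 ± 0.06, adjusted p = 0.0149), Sec24d (0.23 ± 0.06, adjusted p = 0.0370) and Edem1, a lectin of ER-associated degradation, which was lower (-0.20 ± 0.05, adjusted p = 0.0420). Asns and Cebpb passed in each of 20 alternatives of this contrast, which was added later and reuses the arrays of the pairwise comparisons. The Sec24d call ended in 12 alternatives (adjusted p up to 0.0827) and the Edem1 call in 11 (up to 0.102), among them the leaving out of most single arrays.

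The cytosolic and mitochondrial heat shock genes, which answer unfolded protein outside the ER, gave a comparison list of 9 tested genes. Hspb1, a small heat shock protein, rose in OVE against FVB (0.88 ± 0.24, adjusted p = 0.0493), and the other 8 did not pass, with a list median of -0.03. The Hspb1 call ended in 14 of 21 alternatives and its difference was 0.57 without OVE replicate 2. Hspb1 differed by -1.03 ± 0.24 in OVE-D6 against OVE (adjusted p = 0.104), and no heat shock gene passed in the other comparisons.

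Marker transcripts of other cell types and of injured tubule differed between the groups in which the members were compared. The summed linear signal of 10 macrophage markers was 2120 to 2782 in FVB, 2947 to 3402 in D6, 3914 to 9306 in OVE and 2627 to 3316 in OVE-D6, with its lowest OVE value on replicate 3. In OVE against FVB 9 of these 10 rose, and in OVE-D6 against OVE 3 of 10 fell. For 5 injured tubule markers the sums were 1448 to 1579, 1787 to 1939, 3431 to 7567 and 1761 to 3096, in the same order, with 4 of 5 higher in OVE than in FVB. Krt20 of that list was at or under the olfactory receptor level on average. Plasma cells are rich in ER and in Xbp1. A list of 9 plasma cell and B cell markers summed to 1193 to 1235 in FVB, 1135 to 1337 in D6, 1118 to 3211 in OVE and 1033 to 1088 in OVE-D6. Among the 7 tested, 2 rose in OVE against FVB, Sdc1 and Ighm, and 1 fell in OVE-D6 against OVE. On OVE replicate 3, Sdc1 (8.08) and Ighm (8.01) still lay above all FVB arrays (up to 7.76 and 7.79). Jchain, Mzb1, Pou2af1 and Cd79b lay under all FVB arrays there, and Tnfrsf17 lay among them. Tnfrsf17, Cd79a and Ms4a1 were at or under the olfactory receptor level.

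On OVE replicates 1, 2 and 3 the plasma and B cell sum was 3211, 2621 and 1118, while Xbp1 was 10.91, 10.92 and 10.95. Proximal tubule markers summed to 47181 to 49116 in FVB, 48267 to 48609 in D6, 41692 to 46580 in OVE and 45768 to 49133 in OVE-D6, and 1 of 7 fell in OVE against FVB. Adrenal cortex markers summed to 1717 on OVE-D6 replicate 3 and to 179 to 267 on the other arrays. Sums of 7 fibroblast markers were 3713 to 5023 in FVB, 4567 to 5322 in D6, 5664 to 8363 in OVE and 4557 to 5616 in OVE-D6. The part of these cell types in the values of Hspa5, Xbp1, Sdf2l1 and Dnajb9 was not tested.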

How the data were processed

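Per the labels' protocols, RNA from frozen kidneys of 12 mice was turned into labelled sense-strand cDNA for Affymetrix arrays. What the authors deposited is on the log2 scale, 1 value per probe set, with array medians from 6.84 to 6.93. How probes were summarised and arrays normalised is not given in the sources used here. The values were used without rescaling. Of 35556 probe sets 21789 had 1 gene symbol, 1621 several and 12146 none here. Symbols were updated through the gene table of GRCm38.p6 (21698 by Entrez identifier, 3 by accession, 88 kept). Of 19936 genes, 16480 lay above the array's 25th percentile on at least 3 arrays.

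Tests used limma 3.58.1 (R 4.3.3), with 1 mean per group fitted to all 12 arrays, followed by eBayes and Benjamini-Hochberg adjustment at 0.05 in each comparison. Differences carry the moderated standard error. Each array held RNA of a separate mouse, per the labels, and 3 arrays per group limit the precision. Scripts were tested on simulated data. Figures used matplotlib 3.10.9.

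The members and lists were chosen with earlier results of these data known. Named genes were all members, up to 4 called genes per role of the wider list or the 3 smallest p, up to 3 called heat shock genes, and the 6 genes closest to Hspa5 and Ddit3. Of the lists, Mbtps2, Eif2s1, Hspa1b, Hsp90ab1 and Hsf1 had no probe set used here. T cell, endothelial, podocyte, distal tubule, collecting duct and fat markers were also summed. Alternatives changed the filter, scaling, probe set rule, variance model, array weights, groups fitted and threshold, added a replicate block, and left out each array.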

Additional observations from a re-analysis of the deposited data

How the results depend on the processing

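With 3 mice per group, the 95% intervals of OVE against FVB reached up to 1.43-fold for Hspa5, 1.65-fold for Sdf2l1 and 1.66-fold for Ddit3, so rises up to those sizes were not excluded, while that of Calr ended at 1.14-fold. Of 1234 recomputed member values, 1159 kept their direction and side of the threshold, 69 changed sign, 63 of these on leaving out an array, and 6 lost a call, all of Dnajb9 averaged over genotype. Causes were not tested. The member counts stayed at 0 in the 4 pairwise comparisons, except that Dnajb9 was called in OVE against FVB at a threshold of 0.1, giving 1.

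Genes called in OVE against FVB numbered 1200, but 440 in a fit of those 2 groups and 2206 at a threshold of 0.1. In OVE-D6 against OVE the 38 became 0 with 2 groups, 91 with array weights, 7 with the replicate block and 151 at 0.1. In D6 against FVB the 2 became 1 with 2 groups and 4 with array weights. In OVE-D6 against D6 the 47 became 76 with a trended and robust variance, 87 with array weights, 29 with the replicate block and 112 at 0.1. For diabetes averaged over genotype the 1260 became 2091 at 0.1. Leaving out 1 array gave 359 to 1901 genes in OVE against FVB, 1 to 668 in OVE-D6 against OVE, 2 to 3 in D6 against FVB, 17 to 74 in OVE-D6 against D6, 0 to 377 in the interaction and 657 to 1916 in the averaged contrast. The counts of 1901, 668, 74, 377 and 1916 all came without OVE replicate 3. With 1 array left out, called genes of the wider list numbered 1 to 3 in OVE against FVB and 0 to 1 in OVE-D6 against OVE. The 1 in OVE-D6 against OVE also came without OVE replicate 3. Called members then numbered 0 to 1 in the averaged contrast. The replicate numbers showed little sign of pairing: of 18 same-number pairs, 2 correlated above 0.1 (r from -0.248 to 0.124), and 1 of 12 arrays was closest to its own number. Correlations of deviations within groups of 3 arrays cannot exclude a pairing.

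Member medians, leaving out 1 array, ran from -0.060 to 0.104 in OVE against FVB, -0.244 to -0.028 in OVE-D6 against OVE, -0.064 to 0.103 in D6 against FVB, -0.266 to -0.073 in OVE-D6 against D6 and -0.267 to 0.003 in the interaction. Signs changed with the averaged probe sets for Pdia4 (-0.081 in OVE against FVB, -0.09 in D6 against FVB), with array weights for Pdia4 in OVE against FVB (-0.016) and for Dnajb9 in the interaction (0.0085), and for Calr in the interaction with quantile scaling (-0.0015) and median centring (-0.0017).

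Leaving out 1 array also changed the sign of differences near 0, with these ranges. In OVE against FVB they were Trib3 -0.059 to 0.092, Xbp1 -0.064 to 0.12, Pdia4 -0.15 to 0.14, Hspa5 -0.28 to 0.23, Hsp90b1 -0.32 to 0.047, Calr -0.069 to 0.032, Ddit3 -0.093 to 0.41 and Sdf2l1 -0.076 to 0.43. In OVE-D6 against OVE they were Ddit3 -0.16 to 0.34, Calr -0.04 to 0.066, Hspa5 -0.51 to 0.004, Hsp90b1 -0.33 to 0.037 and Herpud1 -0.0076 to 0.21. In D6 against FVB they were Xbp1 -0.17 to 0.015, Herpud1 -0.0089 to 0.1, Pdia4 -0.064 to 0.11, Calr -0.059 to 0.11, Ddit3 -0.064 to 0.29, Hspa5 -0.27 to 0.11 and Hsp90b1 -0.17 to 0.018. In OVE-D6 against D6 they were Calr -0.11 to 0.057, Ddit3 -0.049 to 0.31 and Hspa5 -0.39 to 0.0018. In the interaction they were Dnajb9 -0.064 to 0.074, Calr -0.086 to 0.084, Hsp90b1 -0.23 to 0.13, Hspa5 -0.41 to 0.1, Ddit3 -0.3 to 0.2 and Herpud1 -0.059 to 0.16. In the averaged contrast they were Calr -0.07 to 0.015 and Hspa5 -0.23 to 0.029.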
